A study of Arabidopsis thaliana with 18 samples.

Results

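The UDP-glycosyltransferases (UGTs) are the enzymes of the family 1 glycosyltransferase superfamily that move a sugar from a UDP-sugar onto a small molecule. The members described here are the probe sets with a single gene whose symbol, in the array's probe table or in RefSeq, is UGT followed by a digit. The rule found 47 probe sets, and 46 remained once UGT78D2 was left out, of 22746 probe sets tested. Each stood for a different gene, so that 46 genes in 11 subfamilies were measured, against 58 genes with a UGT symbol in the RefSeq table. The subfamily is the number after UGT: UGT71 had 9 members, UGT76 had 8, UGT73 had 7, UGT84 and UGT85 had 5 each, UGT72 had 4, UGT74 had 3, UGT78 had 2, and UGT80, UGT87 and UGT88 had 1 each.

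The study measured RNA of whole Arabidopsis thaliana seedlings, 7 days old, on 18 Affymetrix arrays. Wild-type (WT) Col-0 seedlings and seedlings of the spx1 spx2 double mutant (labelled spx1,spx2) were grown on solid Johnson medium. Each genotype was sampled on complete medium, on medium that lacked inorganic phosphate (Pi), and after growth without Pi followed by 4 h on complete medium, called resupplied here. There were 6 groups with 3 arrays apiece, named biological replicates in the labels. The 2 genotypes by 3 media allow the changes with starvation, with resupply and with genotype to be compared. No group had 4 h on fresh medium without Pi, so in the resupply change Pi and the change of medium cannot be told apart. The labels do not say whether seedlings were pooled, nor name the mutant alleles, and the transcripts of SPX1 and SPX2 have no named probe set, so their loss was not checked.

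UGTs share a carboxy-terminal signature that binds the sugar donor, and their variable amino-terminal part binds the acceptor. In plants they attach glucose, and sometimes rhamnose or other sugars, to hormones, phenylpropanoids, flavonoids, glucosinolate precursors, sterols and foreign compounds, which makes these more soluble and often stores or inactivates them. SPX1 and SPX2 are nuclear proteins known to bind and hold back PHR1, the transcription factor that drives the Pi starvation response, when Pi is ample. No sequences are printed here.

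The values are log2 RMA signals, and 1 unit is a factor of 2. Changes are differences of group means with the standard error (SE) of a limma model fitted to all 18 arrays, with 3 arrays per group, and a change is called at a Benjamini-Hochberg adjusted p under 0.05 over all 22746 probe sets. Of the spike-in controls, dap read 7.40 to 7.48 on WT complete replicate 3, mutant complete replicate 2 and mutant no Pi replicate 1, and 9.56 to 10.77 on the other 15 arrays. Seedlings were sampled whole, so more of a tissue and more RNA per cell cannot be told apart. Of the 11 root marker genes looked for, 3 were measured (PYK10, EXPA7 and EXPA18), and of 11 green tissue markers 1 was (RCA). None was near the floor: over the 18 arrays PYK10 read 12.19 to 13.59 and RCA 13.52 to 14.17. Whether probes of similar genes, such as the adjacent UGT73B4 and UGT73B5, also bind each other's transcripts was not tested.

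Of the 46 genes, 35 differed among the 6 groups by limma's F test, where 70.9% of all probe sets did. The spread was wide: the highest and the lowest group mean lay 1 or more log2 units apart in 24 of 46 genes (52.2%), as in 31.8% of all probe sets. The median spread was 1.06 for the UGT genes and 0.68 for all. UGT84A1 had the widest, 3.72 on the log2 scale or 13.16-fold, and then UGT76E12 (2.99), UGT73B4 (2.89), UGT71C1 (2.45), UGT84A3 (2.39), UGT73C1 (2.36), UGT76B1 (2.33) and UGT73B5 (2.23). The 11 genes that did not pass the F test were UGT71B5, UGT71B8, UGT76E2, UGT85A3 and UGT85A7, together with UGT73C2, UGT73C7, UGT76E1, UGT78D3, UGT84B1 and UGT84B2, whose mean stayed under 4.397 in all 6 groups. That value is the lowest of the arrays' lower quartiles, and RMA compresses differences at such dim signals. Another 4 genes were that dim in some groups: UGT71B6 in 4, UGT71B8 in 2, and UGT73C1 and UGT76E12 in WT complete medium alone.

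WT seedlings on complete medium stood out by their low values. That group had the lowest mean of the 6 for 18 of 46 genes, against 17.3% of all probe sets, and the highest for 4, against 34.3%. The median of the 46 signals was 5.85, 5.97 and 5.94 on its 3 arrays and 6.52 to 7.07 on the other 15. The medians of all probe sets were 6.72 to 6.86 on the same 3 arrays and 6.75 to 6.91 on the others. The mean of the 3 root markers was also lowest in this group, 8.69 to 8.95 over its arrays, against 9.52 to 10.02 in WT without Pi, 10.15 to 10.19 in WT resupplied, and 9.02 to 9.51, 9.31 to 9.61 and 10.85 to 10.91 in the mutant's groups in the same order. Their part in the UGT values was not tested.

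**Figure D1:**
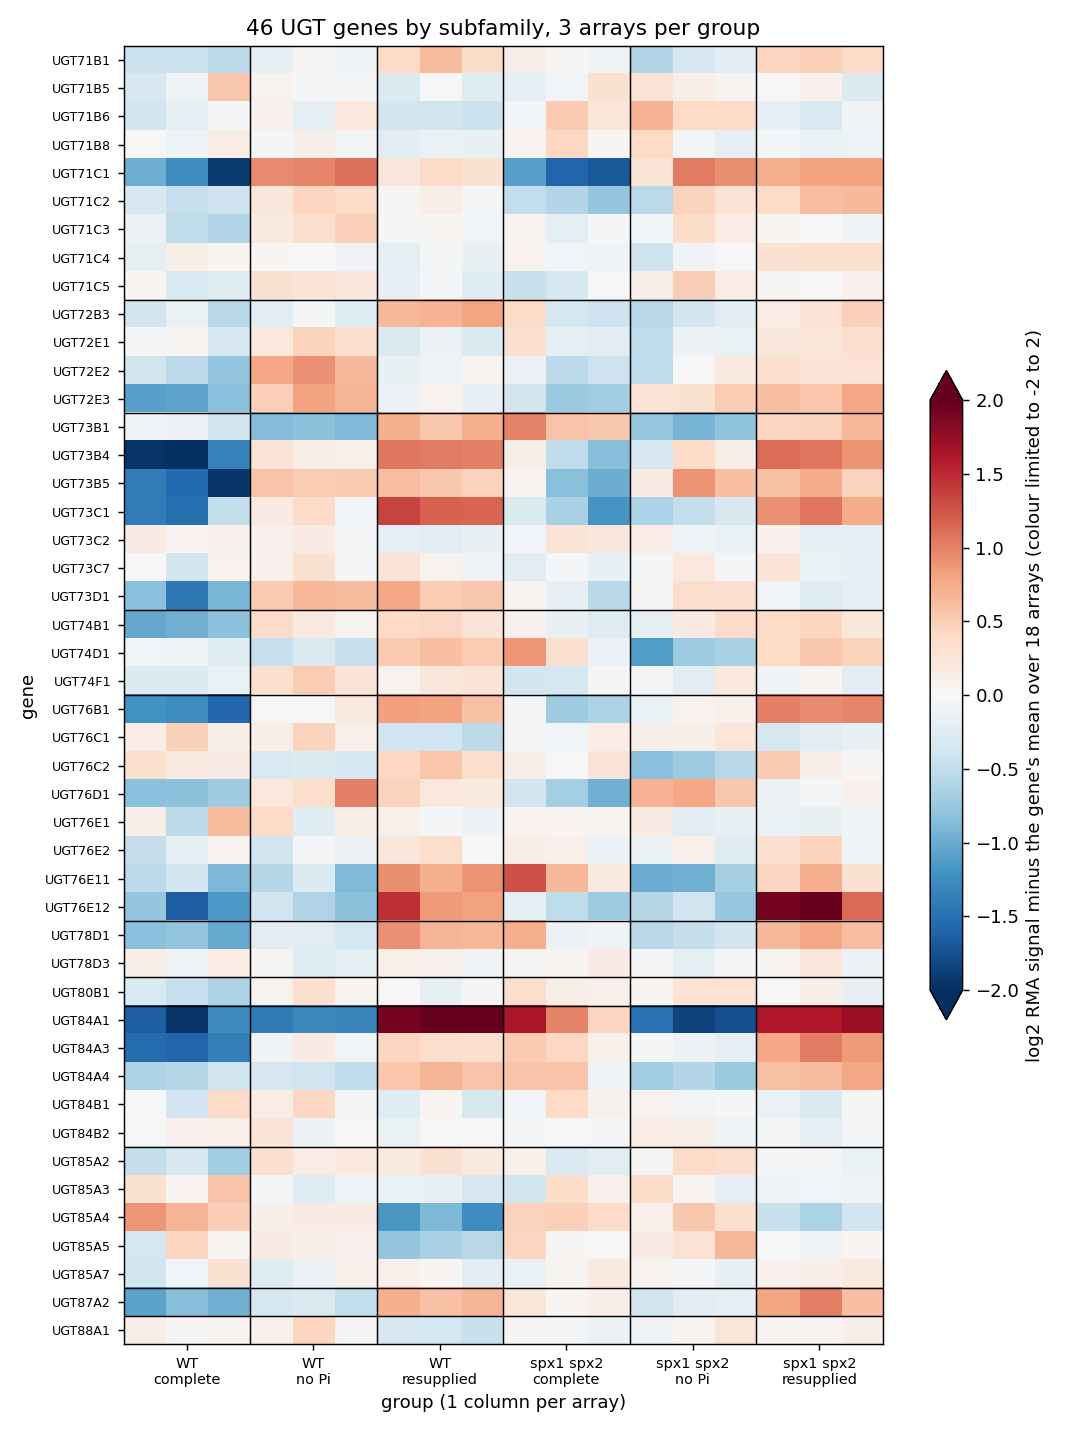
Log2 RMA signal of each UGT gene (rows, ordered by subfamily) on each of the 18 arrays (columns, 3 per group), as the difference from the gene's mean over all arrays, with colours limited to -2 and 2. The left 3 columns, WT in complete medium, are blue for UGT73B4, UGT73B5, UGT76B1, UGT84A1, UGT84A3 and UGT87A2, while both blocks of resupplied arrays are red for UGT76E12 and UGT84A1.

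In the 7 comparisons of groups the genes were called as follows. Starvation in WT (no Pi minus complete) called 25 of 46 genes, where 48.5% of all probe sets were called: 21 rose (20.4% of all) and 4 fell (28.1% of all), with a median change of 0.26 against -0.11 over all probe sets. Starvation in the mutant called 19 (44.0% of all), 9 higher (17.7%) and 10 lower (26.3%), with a median of 0.03 against -0.03. In WT the family thus leaned upwards, while most probe sets that passed were lower.

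Resupply (resupplied minus no Pi) called 25 genes in WT (37.4% of all), 15 higher (18.4%) and 10 lower (19.0%). In the mutant it also called 25 (42.8% of all), 19 higher (23.5%) and 6 lower (19.3%). The median change was -0.07 in WT and 0.16 in the mutant, against -0.05 and -0.01 over all probe sets.

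The mutant differed from WT (mutant minus WT) in 16 genes on complete medium (18.2% of all), and all 16 were higher (10.1%) and 0 lower (8.15%). At an unadjusted p under 0.05 the counts there were 20 higher and 0 lower. Without Pi 1 gene differed, lower in the mutant (0.831% of all in either direction), with 1 higher and 9 lower at an unadjusted p under 0.05. After resupply 10 genes differed (23.1% of all), 9 higher (11.4%) and 1 lower (11.7%). The starvation change differed between the genotypes in 19 genes (12.1% of all), 19 times with the mutant's change the lower (7.74%) and 0 times the higher (4.41%). The resupply change differed in 7 (11.6%), each time with the mutant's change the higher (6.15%). The arrays of the compared groups did not overlap in 26 of 46 genes for starvation in WT (53.2% of all probe sets), 16 for starvation in the mutant (48.8%), 31 and 28 for resupply in WT and in the mutant (58.0% and 51.9%), 20 for genotype in complete medium (25.6%), 13 for genotype without Pi (21.9%) and 23 for genotype after resupply (49.6%).

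**Figure D2:**
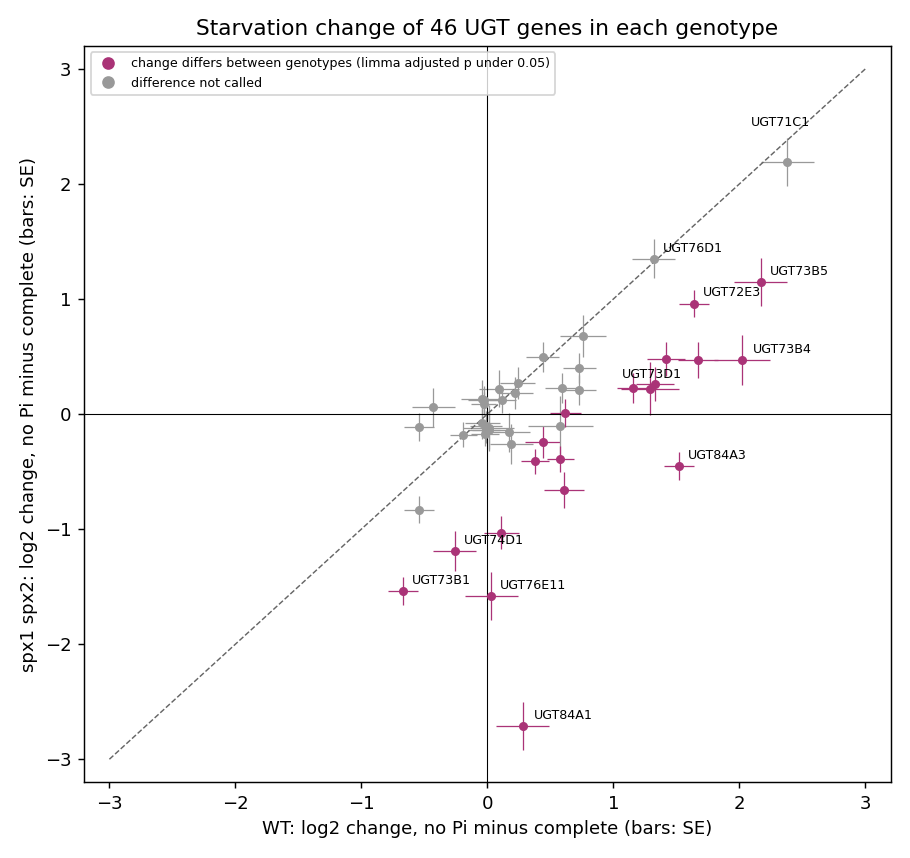
Starvation change of each of the 46 UGT genes in WT (horizontal) and in spx1 spx2 (vertical), as log2 differences of means of 3 arrays with SE bars, the dashed line marking equal change. The 19 purple points, whose change differed between the genotypes by limma's interaction test, lie below the line, from UGT71B1 at 0.38 and -0.41 to UGT84A1 at 0.28 and -2.71, while UGT71C1 and UGT76D1 lie on or close to it.

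The genes that make glucose esters of hydroxycinnamic acids, UGT84A1, UGT84A3 and UGT84A4, were all higher in the mutant in complete medium, UGT84A1 and UGT84A3 by more than any other of the 46 genes. These esters of p-coumaric, caffeic, ferulic and sinapic acid feed sinapate ester and anthocyanin acylation. UGT84A1 read 4.81, 4.50 and 5.20 in WT on complete medium and 8.10, 7.46 and 6.89 in the mutant. Without Pi it read 5.05, 5.18 and 5.13 in WT and 4.97, 4.62 and 4.71 in the mutant, and after resupply 8.38, 8.45 and 8.62, and 8.06, 8.06 and 8.18. The mutant on complete medium thus reached the resupplied range with 1 of its 3 arrays, and the 3 low groups did not overlap with it.

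In UGT84A1 the mutant exceeded WT on complete medium by 2.64 ± 0.21 (6.25-fold, limma adjusted p = 5.04e-08). Starvation lowered it by 2.71 ± 0.21 in the mutant (change -2.71, adjusted p = 5.06e-09), and its change in WT was 0.28 ± 0.21 (adjusted p = 0.292). The interaction was -3.0 ± 0.30 (adjusted p = 2.45e-06). Resupply raised it 10.3-fold in WT (3.36 ± 0.21, adjusted p = 6.39e-10) and 10.07-fold in the mutant (3.33 ± 0.21, adjusted p = 5.38e-10), and the difference between these was -0.03 ± 0.30 (adjusted p = 0.97). Replicate 1 of the mutant on complete medium read highest, and without it the difference there was 2.34. These comparisons share arrays: the complete-medium mutant arrays enter both its starvation change and its difference from WT.

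UGT84A3 lies between UGT84A1 and UGT84A4 on the chromosome (AT4G15480, AT4G15490 and AT4G15500, with no gene between in RefSeq). It read 5.75, 5.70 and 5.92 in WT on complete medium and 7.10 to 8.32 on the other 15 arrays. WT on complete medium was therefore apart from all other groups. Unlike UGT84A1, UGT84A3 rose on starvation in WT, by 1.52 ± 0.12 (2.86-fold, adjusted p = 2.05e-09), and fell in the mutant (-0.45 ± 0.12, adjusted p = 0.00319). On complete medium the mutant was 1.85 ± 0.12 higher (3.60-fold, adjusted p = 2.11e-09), and the starvation interaction was -1.97 ± 0.16 (adjusted p = 2.83e-07). Resupply added 0.36 ± 0.12 in WT and 1.0 ± 0.12 in the mutant, which differed by 0.64 ± 0.16 (adjusted p = 0.0153). The WT call was lost in 3 of 12 alternatives, without WT no Pi replicate 1 (0.32) or 3 (0.33) and without WT resupplied replicate 1 (0.33), and the difference was lost in 1 of 18, without mutant resupplied replicate 2 (0.57).

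UGT84A4 followed UGT84A1 with smaller steps. Its means were 6.4, 6.51 and 7.53 in WT on complete medium, without Pi and resupplied, and 7.28, 6.25 and 7.58 in the mutant. The mutant's 3 arrays on complete medium, 7.50, 7.49 and 6.85, lay above the WT arrays (6.30, 6.36 and 6.53). That difference was 0.88 ± 0.14 (adjusted p = 0.000123), and resupply raised it by 1.02 ± 0.14 in WT and 1.33 ± 0.14 in the mutant. The 2 other members of the subfamily, UGT84B1, an auxin glucosyltransferase gene, and UGT84B2, stayed dim in every group and were not called in any comparison.

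**Figure D3:**
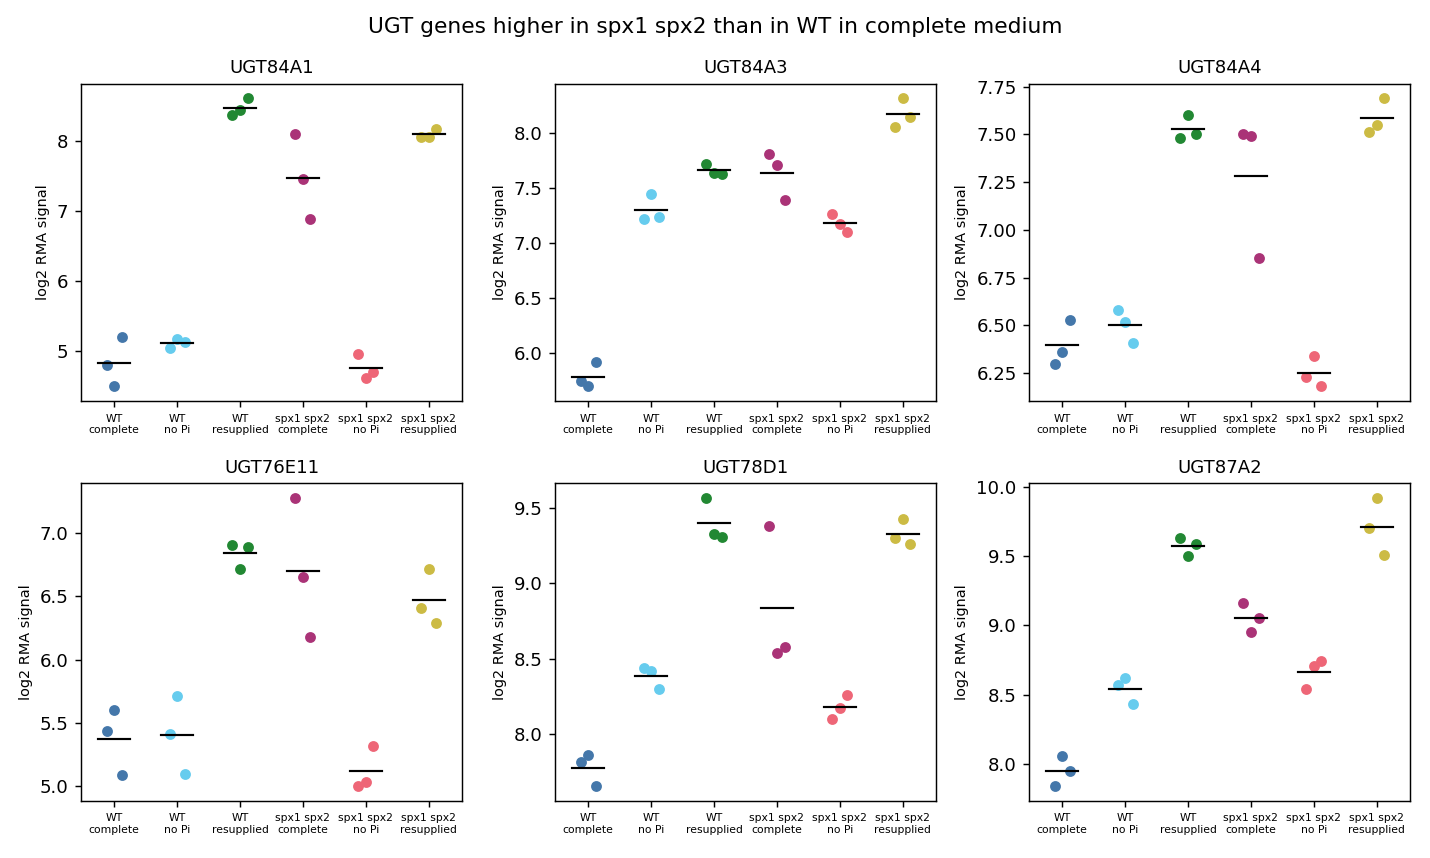
Log2 RMA signal (vertical axes, a scale per panel) of 6 UGT genes higher in spx1 spx2 than in WT in complete medium, with 3 arrays (points) and their mean (bar) in each of the 6 groups. In UGT84A1, UGT84A4 and UGT76E11 the replete mutant and both resupplied groups are high and the other 3 groups low, and in UGT84A3, UGT78D1 and UGT87A2 WT in complete medium is lowest.

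Of the flavonoid-related members, 2 were also higher in the replete mutant. UGT78D1, the flavonol 3-O-rhamnosyltransferase gene, read 7.81, 7.86 and 7.65 in WT on complete medium and 9.38, 8.54 and 8.58 in the mutant. The groups did not overlap, and the mutant was 1.06 ± 0.16 higher (adjusted p = 0.000102). Starvation raised it in WT (0.61 ± 0.16, adjusted p = 0.00361) and lowered it in the mutant (-0.66 ± 0.16, adjusted p = 0.00244), an interaction of -1.27 ± 0.23 (adjusted p = 0.00102). Resupply doubled it in both (2.02-fold in WT and 2.23-fold in the mutant). UGT78D3, which encodes a flavonol arabinosyltransferase, stayed between 3.84 and 4.32 on every array and was not called.

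UGT76E11, which encodes an enzyme known to glucosylate flavonols, read 5.44, 5.6 and 5.09 in WT and 7.28, 6.65 and 6.18 in the mutant on complete medium. The mutant was 1.33 ± 0.21 higher (adjusted p = 0.000196), and its arrays spread over more than 1 unit. Starvation took it down in the mutant (-1.58 ± 0.21, adjusted p = 6.25e-06), while in WT the change was 0.03 ± 0.21. Resupply raised it by 1.43 ± 0.21 in WT and 1.35 ± 0.21 in the mutant. Its near neighbour UGT76E12 had the second widest spread of the family. It read 4.50, 3.62 and 4.13 in WT on complete medium, 4.45 to 4.88 in WT without Pi and 6.74, 6.13 and 6.08 in WT resupplied. In the mutant it read 4.55 to 5.09 on complete medium, 4.51 to 4.87 without Pi and 7.19, 7.64 and 6.40 resupplied, so that the resupplied arrays alone exceeded 6. Resupply raised UGT76E12 by 1.65 ± 0.26 (3.14-fold, adjusted p = 5.21e-05) in WT and 2.38 ± 0.26 (5.19-fold, adjusted p = 6.01e-07) in the mutant. The mutant was 0.76 ± 0.26 higher than WT after resupply (adjusted p = 0.0441), but the arrays overlapped and the call was lost in 5 of 12 alternatives.

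The monolignol glucosyltransferase genes UGT72E1, UGT72E2 and UGT72E3, whose enzymes glucosylate lignin precursors such as coniferyl and sinapyl alcohol and aldehydes, took another course. All 3 rose on starvation in WT and fell on resupply in WT, and none fell on resupply in the mutant. UGT72E2 read 9.50, 9.35 and 9.09 in WT on complete medium, 10.64, 10.78 and 10.51 without Pi and 9.72, 9.78 and 9.90 resupplied. The starved arrays were the highest of all 18. The mutant read 9.75, 9.34 and 9.45 on complete medium, 9.36, 9.88 and 10.06 without Pi and 10.19, 10.14 and 10.15 resupplied.

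UGT72E2 thus rose by 1.33 ± 0.15 on starvation in WT (2.51-fold, adjusted p = 6.41e-07), and its change in the mutant was 0.26 ± 0.15 (adjusted p = 0.195). Resupply lowered it in WT (-0.84 ± 0.15, adjusted p = 0.000221), and it was higher after resupply in the mutant by 0.39 ± 0.15 (adjusted p = 0.0488, a call lost in 10 of 12 alternatives). The difference between the genotypes was -1.07 ± 0.22 for starvation (adjusted p = 0.00298) and 1.23 ± 0.22 for resupply (adjusted p = 0.00107). It was the 1 UGT gene called between the genotypes without Pi, at -0.87 ± 0.15 (adjusted p = 0.00887). Without WT no Pi replicate 2 that difference was -0.80 with an adjusted p of 0.0784.

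UGT72E3 read 5.39, 5.43 and 5.64 in WT on complete medium, 6.95, 7.28 and 7.16 without Pi and 6.36, 6.55 and 6.31 resupplied. The mutant read 6.11, 5.74 and 5.79, then 6.76, 6.78 and 6.99, then 7.08, 7.04 and 7.25. Starvation raised it in both genotypes, by 1.64 ± 0.12 (3.12-fold) in WT and 0.96 ± 0.12 in the mutant, a difference of -0.68 ± 0.17 (adjusted p = 0.0155, lost in 2 of 18 alternatives, centring and without mutant complete replicate 1). After resupply WT had lost 0.72 ± 0.12 (change -0.72, adjusted p = 0.000106) and the mutant's change was 0.28 ± 0.12 (adjusted p = 0.0752), and these differed by 1.0 ± 0.17 (adjusted p = 0.000927). UGT72E1 moved less, by 0.44 ± 0.14 on starvation and -0.55 ± 0.14 on resupply in WT, and by -0.24 ± 0.14 (adjusted p = 0.202) and 0.53 ± 0.14 in the mutant, with a resupply difference of 1.08 ± 0.20 (adjusted p = 0.00168). Its WT starvation call was lost without WT complete replicate 3 (0.33), without WT no Pi replicate 2 (0.38) and without the 3 low spike-in arrays (0.33). Its starvation interaction of -0.67 was lost in 8 of 18 alternatives. Opposite calls on resupply, lower in WT and higher in the mutant, were made for 2 of 46 genes, UGT72E1 and UGT72E2, and for 0.396% of all probe sets.

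EXPA7 and EXPA18, which encode expansins of root hair cells and are 2 of the 3 root markers measured, moved with the resupply difference. They were higher in the mutant than in WT after resupply by 1.25 ± 0.20 and 1.13 ± 0.22, and their resupply interactions were 1.45 ± 0.29 and 1.26 ± 0.31, while PYK10 was called in neither. All 3 root markers rose on starvation in WT (EXPA7 by 1.01 ± 0.20, EXPA18 by 0.96 ± 0.22 and PYK10 by 0.79 ± 0.14) and none was called on starvation in the mutant. The starvation change of PYK10 differed between the genotypes by -0.78 ± 0.20 (adjusted p = 0.0173). The green tissue marker RCA fell on starvation in WT (-0.46 ± 0.10, adjusted p = 0.000759), where 21 UGT genes rose, and its change in the mutant was -0.25 ± 0.10 (adjusted p = 0.0539). The part of these markers in the UGT values was not tested.

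**Figure D4:**
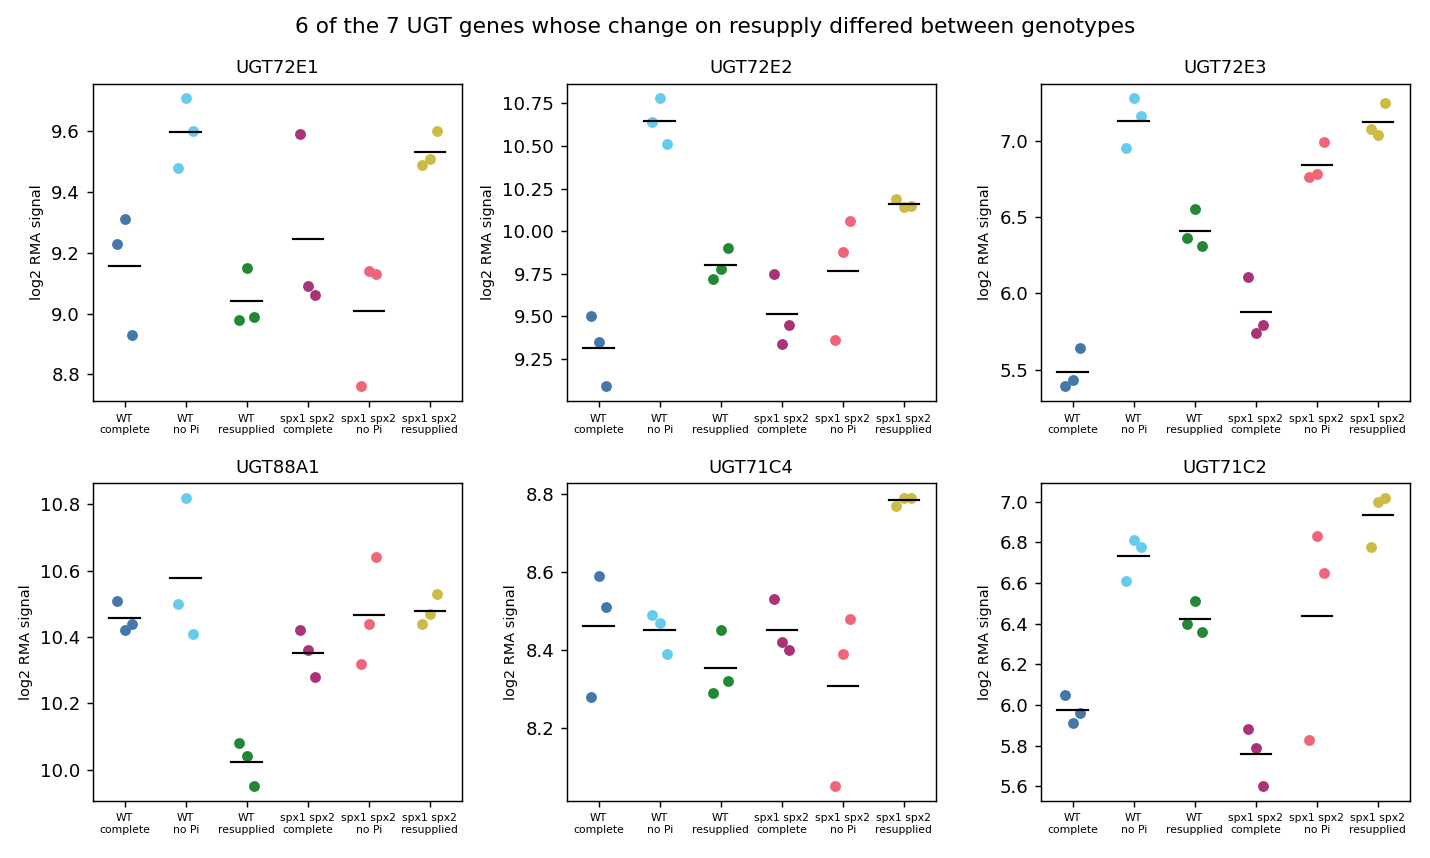
Log2 RMA signal (vertical axes, a scale per panel) of 6 of the 7 UGT genes whose resupply change differed between the genotypes (the seventh is UGT84A3), with 3 arrays (points) and their mean (bar) in each of the 6 groups. In UGT72E1 and UGT72E2 WT resupplied lies below WT without Pi while the resupplied mutant lies above the starved mutant, and in UGT88A1 WT resupplied is the lowest group.

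Among the 21 UGT genes that rose on starvation in WT were UGT76B1, UGT76D1 and UGT74F1. These 3 encode enzymes that act on salicylic acid or related defence compounds. They were grouped by known role and not from a list, and other members may belong with them. UGT76B1, whose enzyme glucosylates isoleucic acid, salicylic acid and N-hydroxypipecolic acid, read 7.82, 7.79 and 7.47 in WT on complete medium, 9.05, 9.05 and 9.24 without Pi and 9.86, 9.85 and 9.62 resupplied. Starvation raised it by 1.42 ± 0.15 (2.68-fold, adjusted p = 1.6e-07) and resupply by a further 0.66 ± 0.15. The mutant already read 9.0, 8.32 and 8.41 on complete medium, 0.88 ± 0.15 above WT (adjusted p = 0.000294), and rose to 9.99 to 10.05 after resupply. The starvation interaction was -0.94 ± 0.21 (adjusted p = 0.00594).

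UGT76D1, the gene of a dihydroxybenzoic acid glycosyltransferase, rose on starvation in both genotypes. It read 5.65, 5.67 and 5.78 in WT on complete medium and 6.71, 6.85 and 7.50 without Pi, and 6.11, 5.81 and 5.53 and then 7.18, 7.27 and 7.03 in the mutant. The rise was 1.32 ± 0.17 in WT (adjusted p = 2.13e-06) and 1.35 ± 0.17 in the mutant (adjusted p = 2.29e-06), and the interaction was 0.02 ± 0.24 (adjusted p = 0.962). Resupply lowered it in the mutant (-0.69 ± 0.17, adjusted p = 0.00241), and in WT its change was -0.24 ± 0.17 (adjusted p = 0.301). The difference between these resupply changes, -0.45 ± 0.24, did not pass (adjusted p = 0.259). UGT74F1, which encodes a salicylic acid glucosyltransferase, rose by 0.59 ± 0.13 on starvation in WT (adjusted p = 0.000687), and its change in the mutant was 0.23 ± 0.13 (adjusted p = 0.158). Its interaction of -0.36 ± 0.18 did not pass (adjusted p = 0.205).

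Among genes for abscisic acid glucosylation, UGT71C5 rose on starvation in both genotypes (0.44 ± 0.13 in WT and 0.50 ± 0.13 in the mutant) and fell on resupply in WT (-0.42 ± 0.13, adjusted p = 0.0134, lost without WT resupplied replicate 3). UGT71B6 fell on resupply in both, by 0.42 ± 0.14 in WT (change -0.42) and by 0.68 ± 0.14 in the mutant (change -0.68). Both WT means, 4.28 without Pi and 3.86 resupplied, were dim. In the mutant the mean was 4.74 without Pi and dim, at 4.06, after resupply. The WT call of UGT71B6 was lost in 5 of 11 alternatives. UGT71B8 was not called in any comparison. The range of its 6 group means was 0.32.

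The cytokinin N-glucosyltransferase genes UGT76C1 and UGT76C2 are adjacent (AT5G05870 and AT5G05860) and moved in opposite directions on resupply. UGT76C2 read 7.74 to 7.89 in WT on complete medium, 7.22 to 7.30 without Pi and 7.92 to 8.12 resupplied, and 7.58 to 7.82, 6.73 to 7.01 and 7.59 to 8.09 in the mutant. The starved arrays were the lowest in each genotype. It fell on starvation by 0.54 ± 0.12 in WT (change -0.54, adjusted p = 0.00104) and 0.83 ± 0.12 in the mutant (change -0.83, adjusted p = 1.4e-05), and rose on resupply by 0.75 ± 0.12 and 0.93 ± 0.12. UGT76C1 changed by -0.03 ± 0.12 and 0.12 ± 0.12 on starvation, neither called, and then fell on resupply (-0.66 ± 0.12 in WT, adjusted p = 0.000157, and -0.40 ± 0.12 in the mutant, adjusted p = 0.00961).

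Of the auxin-related genes, UGT74D1 read 8.5, 8.47 and 8.3 in WT on complete medium and 8.10, 8.26 and 8.10 without Pi. The mutant read 9.42, 8.88 and 8.43, and then 7.44, 7.83 and 7.90. It fell on starvation in the mutant (-1.19 ± 0.17, adjusted p = 1.56e-05), and the change in WT was -0.26 ± 0.17 (adjusted p = 0.226). The difference, -0.92 ± 0.25 (adjusted p = 0.0191), was lost in 4 of 18 alternatives: without mutant no Pi replicate 1 (-0.78), without WT no Pi replicate 2 (-0.87), without the 3 low spike-in arrays (-0.73) and with the compared groups alone (-0.92). Resupply raised it by 0.94 ± 0.17 and 1.3 ± 0.17. UGT76E1 and UGT76E2, which encode hydroxyjasmonate glucosyltransferases, were not called in any comparison, UGT76E1 being dim throughout and UGT76E2 lying between 5.35 and 6.28. They were named by known role and not from a list, and other members may share that role.

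UGT73B4 and UGT73B5, known for induction by oxidative stress and pathogens, had the largest starvation rises in WT after that of UGT71C1. UGT73B4 read 4.56, 4.28 and 5.17 in WT on complete medium and 6.79, 6.66 and 6.63 without Pi. The adjacent UGT73B5 read 5.54, 5.38 and 4.99 and then 7.50, 7.45 and 7.46. Both pairs of groups were well apart. UGT73B4 rose by 2.02 ± 0.22 (4.05-fold, adjusted p = 3.21e-07) and UGT73B5 by 2.17 ± 0.21 (4.50-fold, adjusted p = 7.39e-08).

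In the mutant on complete medium UGT73B4 read 6.64, 6.02 and 5.67, which was 1.44 ± 0.22 above WT (adjusted p = 0.000115). UGT73B5 read 6.98, 6.10 and 5.95 there, 1.04 ± 0.21 above WT (adjusted p = 0.00182). Their starvation changes in the mutant were 0.47 ± 0.22 (adjusted p = 0.0968) and 1.15 ± 0.21 (adjusted p = 0.000204), and the interactions -1.55 ± 0.31 (adjusted p = 0.00292) and -1.02 ± 0.30 (adjusted p = 0.0331, lost in 8 of 18 alternatives). On resupply the pair parted: UGT73B4 gained 0.87 ± 0.22 in WT and 0.98 ± 0.22 in the mutant, while UGT73B5 changed by 0.00 ± 0.21 and 0.04 ± 0.21.

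UGT73C1, whose enzyme glucosylates xenobiotics and cytokinins, read 3.77, 3.66 and 4.68 in WT on complete medium, where its mean is dim, 5.32, 5.55 and 5.11 without Pi and 6.51, 6.35 and 6.33 resupplied. It rose in 2 steps, by 1.29 ± 0.23 on starvation (adjusted p = 9.44e-05) and 1.07 ± 0.23 on resupply (adjusted p = 0.000859). In the mutant it read 4.88, 4.52 and 3.99 on complete medium and 4.53, 4.68 and 4.84 without Pi, which overlapped (0.22 ± 0.23, adjusted p = 0.481), and resupply raised it by 1.39 ± 0.23 (adjusted p = 5.34e-05). UGT73D1 read 5.18, 4.58 and 5.10 in WT on complete medium and 6.52 to 6.78 on the other 6 WT arrays. It rose by 1.67 ± 0.16 on starvation in WT (3.19-fold, adjusted p = 4.55e-08) and by 0.47 ± 0.16 in the mutant (adjusted p = 0.0222, lost in 4 of 12 alternatives). It was the 1 UGT gene lower in the mutant after resupply (-0.78 ± 0.16, adjusted p = 0.00165).

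On starvation UGT73B1 ran against the other called genes of its subfamily. Like UGT73B4, UGT73B5 and UGT73D1, it was higher in the mutant on complete medium (0.89 ± 0.12, adjusted p = 3.4e-05). It read 6.52, 6.47 and 6.22 in WT on complete medium, 5.73, 5.78 and 5.71 without Pi and 7.30, 7.13 and 7.32 resupplied. In the mutant it read 7.59, 7.17 and 7.13, then 5.84, 5.66 and 5.79, then 7.02, 7.05 and 7.25. Starvation lowered it in both genotypes (-0.67 ± 0.12 in WT and -1.54 ± 0.12 in the mutant), and resupply raised it by 1.51 ± 0.12 and 1.35 ± 0.12. UGT74B1, which encodes the glucosyltransferase that acts on thiohydroximates in glucosinolate synthesis, read 8.84, 8.90 and 9.04 in WT on complete medium and 9.61 or more on every other array. It rose by 1.16 ± 0.13 on starvation in WT (2.23-fold, adjusted p = 5.8e-07) and was 0.83 ± 0.13 higher in the mutant on complete medium (adjusted p = 0.000165).

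UGT80B1, the sterol glucosyltransferase gene linked to seed coat flavonoids, rose by 0.62 ± 0.12 on starvation in WT (adjusted p = 0.000231), with 0.01 ± 0.12 in the mutant, whose complete-medium arrays already lay 0.66 ± 0.12 above WT. UGT87A2, known for its part in flowering time, read 7.84, 8.06 and 7.95 in WT on complete medium and 9.16, 8.95 and 9.05 in the mutant. It rose on starvation in WT (0.58 ± 0.11, adjusted p = 0.000212) and fell in the mutant (-0.39 ± 0.11, adjusted p = 0.00762), and resupply brought it to 9.50 to 9.63 in WT and 9.51 to 9.92 in the mutant. Opposite calls on starvation, higher in WT and lower in the mutant, were made for 4 of 46 genes (UGT71B1, UGT78D1, UGT84A3 and UGT87A2) and for 0.958% of all probe sets.

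The remaining members are given without a role. UGT71C1 had the largest starvation rise of the family in both genotypes. It read 8.36, 8.09 and 7.43 in WT on complete medium, 10.28, 10.32 and 10.44 without Pi and 9.56, 9.73 and 9.65 resupplied, and 8.25, 7.75 and 7.66, then 9.59, 10.38 and 10.27, then 10.06, 10.15 and 10.15 in the mutant. Both complete-medium groups lay below all other arrays. The rise was 2.38 ± 0.21 in WT (5.22-fold, adjusted p = 1.63e-08) and 2.19 ± 0.21 in the mutant (4.56-fold, adjusted p = 7.86e-08), with an interaction of -0.19 ± 0.30. Resupply lowered it in WT (-0.70 ± 0.21, adjusted p = 0.0129), and in the mutant its change was 0.04 ± 0.21. The difference in that change, 0.74 ± 0.30, did not pass (adjusted p = 0.124).

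The adjacent UGT71C2 rose on starvation too, by 0.76 ± 0.18 in WT and 0.68 ± 0.18 in the mutant. The mutant's arrays overlapped, at 5.88, 5.79 and 5.60 on complete medium and 5.83, 6.83 and 6.65 without Pi. The 5.83 came from replicate 1, a low spike-in array. The resupply change of UGT71C2 differed between the genotypes by 0.81 ± 0.25 (adjusted p = 0.0411, lost in 7 of 18 alternatives). UGT71C3, UGT71C4 and UGT71C5 form another adjacent set. UGT71C3 rose on starvation in WT (0.73 ± 0.13). UGT71C4 read 8.77, 8.79 and 8.79 in the resupplied mutant, above the 8.05 to 8.59 of all other arrays, and its resupply change differed by 0.57 ± 0.16 (adjusted p = 0.0253, lost in 7 of 18 alternatives). UGT71B1 rose on resupply in both genotypes (0.54 ± 0.11 and 0.81 ± 0.11), and UGT71B5 was not called in any comparison.

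Among the UGT85A genes, UGT85A4 and UGT85A5 fell on resupply in WT. UGT85A4 read 8.09, 7.89 and 7.70 in WT on complete medium, 7.32 to 7.37 without Pi and 6.05, 6.31 and 5.97 resupplied, and in the mutant 7.57 to 7.68, 7.31 to 7.74 and 6.57 to 6.84. It fell on resupply by 1.24 ± 0.12 in WT (change -1.24, adjusted p = 2.24e-07) and 0.80 ± 0.12 in the mutant (change -0.80, adjusted p = 3.28e-05). WT resupplied was the lowest group, and the mutant was 0.62 ± 0.12 higher there. UGT85A5 fell on resupply in WT (-0.78 ± 0.16, adjusted p = 0.00082), and its change in the mutant was -0.39 ± 0.16 (adjusted p = 0.0671). These changes differed by 0.40 ± 0.23, which did not pass (adjusted p = 0.323). UGT85A4 also fell on starvation in WT (-0.54 ± 0.12, adjusted p = 0.00132), and its interaction did not pass (0.43 ± 0.18, adjusted p = 0.125). UGT85A2 rose on starvation in WT (0.73 ± 0.13) and in the mutant (0.40 ± 0.13, adjusted p = 0.0132). The mutant arrays overlapped, that call was lost in 4 of 12 alternatives, and the interaction did not pass (adjusted p = 0.253). UGT85A3 fell on starvation in WT (-0.43 ± 0.17, lost in 8 of 12 alternatives) but did not pass the F test. UGT85A7 was not called in any comparison.

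UGT88A1, the only measured member of its subfamily, read 9.95 to 10.08 in WT resupplied and 10.28 to 10.82 on the other 15 arrays. It fell on resupply in WT (-0.56 ± 0.11, adjusted p = 0.000424), its change in the mutant was 0.01 ± 0.11, and these differed by 0.57 ± 0.15 (adjusted p = 0.0217, lost in 3 of 18 alternatives). UGT72B3 rose on resupply by 0.87 ± 0.17 in WT and 0.68 ± 0.17 in the mutant, and was not called on starvation.

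Among the subfamilies with 3 or more measured genes, the medians over genes differed most between groups in UGT73, UGT84 and UGT72. Relative to each gene's mean over the 6 groups, the UGT73 median was -1.06 in WT on complete medium, 0.16 without Pi and 0.60 resupplied, and -0.23, 0.05 and 0.52 in the mutant. The UGT84 median was -0.53, 0.01 and 0.37 in WT and 0.34, -0.11 and 0.66 in the mutant. The UGT72 median was -0.45, 0.49 and -0.07 in WT and -0.24, -0.18 and 0.30 in the mutant. UGT73 and UGT84 were thus highest after resupply in both genotypes, and UGT72 was highest without Pi in WT and after resupply in the mutant. UGT85 stayed between -0.21 and 0.26. Starvation in WT, where 20.4% of all probe sets were called higher and 28.1% lower (48.5% in either direction), called 5 of 7 UGT73 genes (4 higher and 1 lower), 3 of 4 UGT72 genes (all higher), 5 of 9 UGT71 genes (all higher), 3 of 8 UGT76 genes (2 higher and 1 lower), 3 of 5 UGT85 genes (1 higher and 2 lower) and 1 of 5 UGT84 genes (higher). In UGT74 it called 2 of 3 genes, each higher. The either-direction shares of UGT71, UGT76 and UGT84 are thus near or below that of all probe sets. In complete medium, where 10.1% of all probe sets were higher in the mutant, it was higher in 4 of 7 UGT73 genes, 3 of 5 UGT84 genes, 2 of 9 UGT71 genes, 2 of 8 UGT76 genes and 0 of 5 UGT85 genes. The mutant was also higher there in 1 of 4 UGT72 genes and 1 of 3 UGT74 genes. These counts and medians are a description, and differences between subfamilies were not tested.

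**Figure D5:**
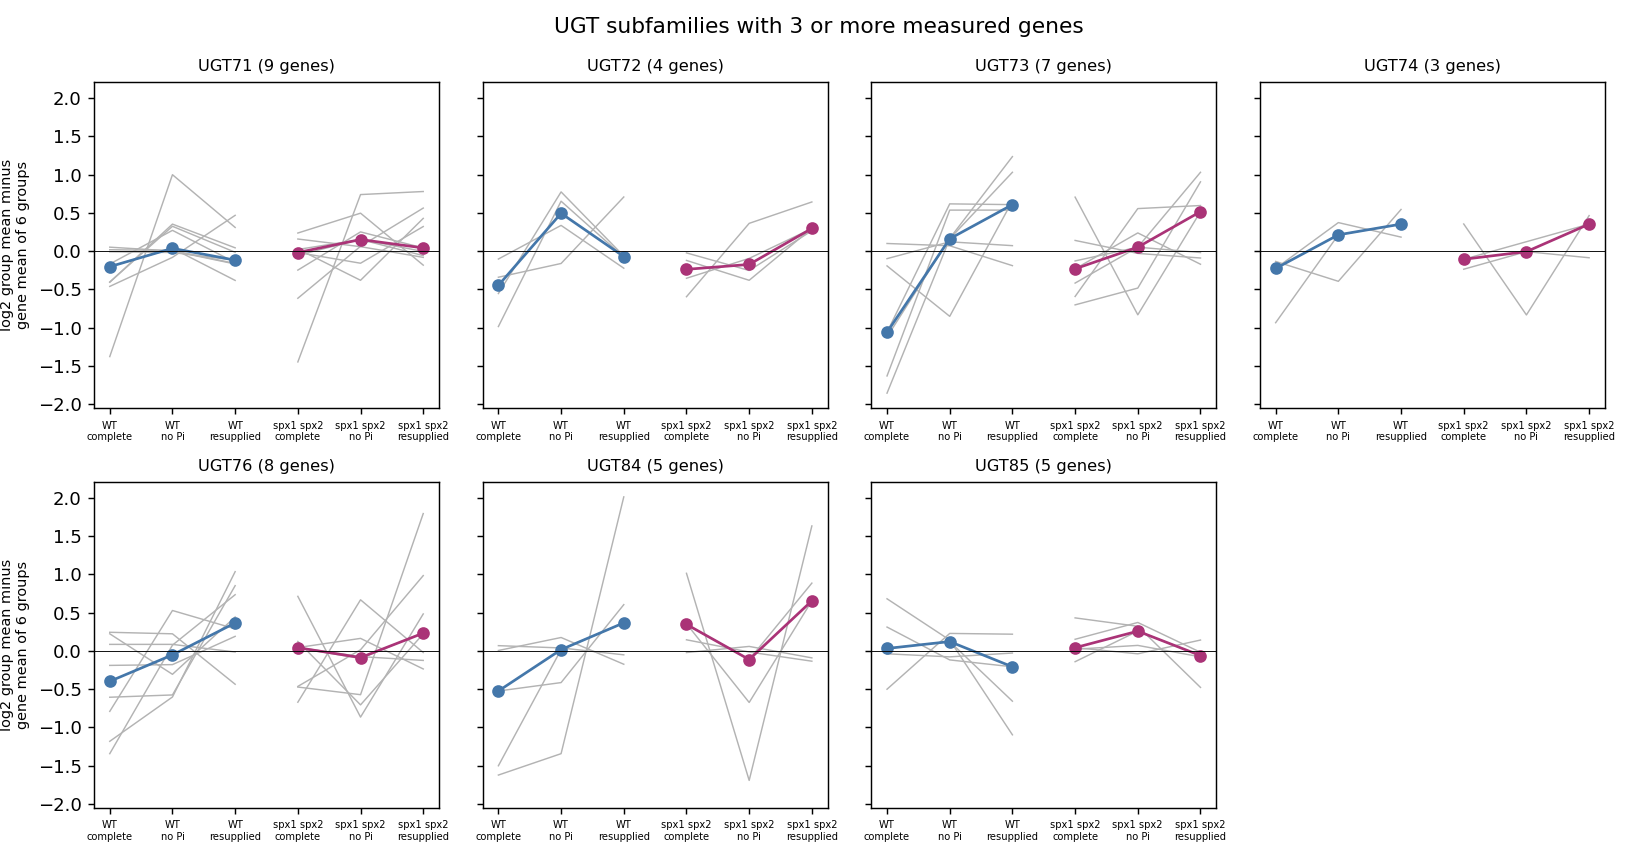
Group means of the genes of each UGT subfamily with 3 or more measured genes, as log2 differences from the gene's mean over the 6 groups (vertical), in WT and in spx1 spx2 (horizontal, 3 media each). Grey lines are genes and coloured points their median: UGT73 starts at -1.06 in WT on complete medium, UGT72 peaks at 0.49 in WT without Pi, and UGT84 reaches 0.66 in the resupplied mutant.

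Starvation in WT and starvation in the mutant share no arrays. Of the 46 genes, 9 rose in both (19.6%, and 13.5% of all probe sets), and 2 fell in both, UGT73B1 and UGT76C2 (4.35%, and 18.5% of all). Another 8 rose in WT without a call in the mutant (17.4%, and 5.99% of all). Across genes, which are not independent replicates, the 2 changes had a Pearson r of 0.61 over the 46 and of 0.83 over all probe sets. Resupply in the 2 genotypes shares no arrays either: 15 genes rose in both (32.6%, and 14.4% of all), 3 fell in both (6.52%, and 11.7% of all), and r was 0.90 over the 46 genes and 0.75 over all. All 15 that rose in WT were among the 19 that rose in the mutant. Of all probe sets that rose in WT, 78.1% also rose in the mutant.

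The mutant's difference from WT on complete medium shares no arrays with resupply in WT. Of the 16 genes higher in the replete mutant, 10 rose on resupply in WT, 62.5% of the first list and 66.7% of the second (41.8% and 22.9% for all probe sets). Beside UGT84A1, UGT84A3, UGT87A2, UGT78D1, UGT76E11, UGT73B4, UGT73B5, UGT73B1, UGT76B1, UGT84A4, UGT74B1, UGT73D1 and UGT80B1, the 16 held UGT71B1 (0.49 ± 0.11), UGT71B6 (0.44 ± 0.14) and UGT72E3 (0.39 ± 0.12). The calls of UGT71B6 and UGT72E3 were lost in 8 of 11 and 5 of 12 alternatives. Replicate 1 of the mutant on complete medium was the highest of its group in 15 of the 16, as in 73.7% of all probe sets higher there. Without that array 15 genes were called there, UGT72E3 being lost, while the share of all probe sets called went from 18.2% to 10.4%. The starvation interaction was then called in 14 genes, while the share of all probe sets went from 12.1% to 7.42%. The calls lost there were those of UGT72E1, UGT72E3, UGT73B5, UGT73C1 and UGT80B1. PYK10 was the root marker higher in the replete mutant (0.44 ± 0.14, adjusted p = 0.0417).

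Genes that act beside UGTs were counted from lists of symbols and loci. Of 5 family 1 glycosyltransferases with other names, 4 were higher in the replete mutant. They were AT4G14090 and UF3GT, which decorate anthocyanins with glucose and xylose (1.37 ± 0.19 and 1.17 ± 0.18), GT72B1, which acts on phenols and xenobiotics (0.74 ± 0.15), and IAGLU, an auxin glucosyltransferase gene (0.47 ± 0.16). After resupply AT4G14090 and UF3GT were lower in the mutant than in WT (-1.14 ± 0.19 and -0.99 ± 0.18). For the lists that follow, the shares of all probe sets called were 20.4% higher and 28.1% lower for starvation in WT, with a median of -0.11, and 10.1% higher and 8.15% lower for the replete mutant. Of 11 tau glutathione transferases, enzymes that join glutathione to foreign compounds, 3 were higher in the replete mutant and 0 lower: GSTU25 by 3.70 ± 0.23, GSTU22 by 2.13 ± 0.19 and GSTU26 by 0.89 ± 0.20. Starvation in WT raised 4 and lowered 2 of the 11, with a median of 0.30.

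Of 20 BGLU beta-glucosidases, a family whose members can remove such sugars, 7 rose and 3 fell on starvation in WT (median -0.08), among them BGLU44 by 2.49 ± 0.22, BGLU15 by 2.33 ± 0.11 and BGLU19 by 2.02 ± 0.20, and 4 were higher and 1 lower in the replete mutant. Of 29 SCPL proteins, some of which are acyltransferases that use glucose esters, 10 rose and 4 fell on starvation in WT (median 0.09), and 4 were higher and 3 lower in the replete mutant. Of these, scpl22 rose by 4.39 ± 0.19 in WT and 4.23 ± 0.19 in the mutant, and fell on resupply (-4.42 ± 0.19 and -3.55 ± 0.19). Of 22 CYP cytochromes P450, which often make the hydroxyl group that a UGT uses, 7 rose and 4 fell on starvation in WT, with a median of -0.11, the same as over all probe sets. USP, which makes UDP-sugars, rose by 1.09 ± 0.15 in WT and 0.65 ± 0.15 in the mutant and fell on resupply (-0.93 ± 0.15 and -0.76 ± 0.15). Of 23 phenylpropanoid and flavonoid synthesis genes 3 were measured. DFR, which makes leucoanthocyanidins, rose by 1.37 ± 0.18 on starvation in WT and by 0.60 ± 0.18 in the mutant. In the replete mutant 0 of these 3 genes were called higher and 0 lower, with a median of -0.17. DFR read 8.37, 8.50 and 8.53 there, and 8.51, 8.75 and 8.65 in WT on complete medium. GSTF4, the single phi glutathione transferase measured, rose by 0.50 ± 0.12 on starvation in the mutant, and no ABCC or DTX transporter was measured.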

How the data were processed

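Per the submitters' processing notes the arrays were summarised by RMA. The deposited table holds 1 log2 value per probe set and array, read here as log2 from its range of 2.289 to 14.346, since the base is not written beside the values; no source used here names the software, its version or the probe set definition. RMA corrects background, makes the arrays' distributions alike and summarises each probe set, so that a change of total RNA is not measured. Of 22810 probe sets, 64 controls were left out. Genes were named from the array's probe table and matched to RefSeq (assembly TAIR10.1), where all 46 members matched.

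The 6 groups were fitted with limma 3.58.1 on R 4.3.3, with a mean per group (12 residual and 6.4 prior degrees of freedom, median residual SD 0.162), two-sided tests, and Benjamini-Hochberg adjustment over 22746 probe sets in each comparison. The procedure was tested on simulated data. Precision is limited by having 3 arrays in a group. The labels do not say which seedlings were grown apart, so p-values measure the spread between these arrays. Any UGT probe set could be named, and from each other list at most 4 genes, those with the largest changes past the test. Members and lists were chosen with earlier results of these data known. The alternatives were a replicate block, no dim probe sets, median centring, a block term for the 3 low spike-in arrays or their removal, the compared groups alone, and each array left out in turn.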

Additional observations from a re-analysis of the deposited data

Results flagged for a closer look

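In 19 UGT genes the starvation change differed between the genotypes by limma's interaction test (mutant change minus WT change, log2, adjusted p under 0.05). The differences were -3.0 for UGT84A1, -1.97 for UGT84A3, -1.61 for UGT76E11, -1.55 for UGT73B4, -1.27 for UGT78D1, -1.21 for UGT73D1, -1.14 for UGT84A4, -1.07 for UGT72E2, -1.07 for UGT73C1 and -1.02 for UGT73B5. They were -0.97 for UGT87A2, -0.94 for UGT76B1, -0.93 for UGT74B1, -0.92 for UGT74D1, -0.87 for UGT73B1, -0.79 for UGT71B1, -0.68 for UGT72E3, -0.67 for UGT72E1 and -0.61 for UGT80B1. Calls lost under some alternatives were those of UGT73C1 (11 of 18), UGT72E1 and UGT73B5 (8 each), UGT80B1 (6), UGT74D1 (4) and UGT72E3 (2). The test uses the complete-medium arrays, where 15 of these 19 genes were higher in the mutant (UGT72E1, UGT72E2, UGT73C1 and UGT74D1 were not called there).

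In 7 genes the resupply change differed in the same test: by 1.23 for UGT72E2, 1.08 for UGT72E1, 1.0 for UGT72E3, 0.81 for UGT71C2, 0.64 for UGT84A3, 0.57 for UGT71C4 and 0.57 for UGT88A1. Of these, UGT71C2 and UGT71C4 were lost in 7 of 18 alternatives each, UGT88A1 in 3 and UGT84A3 in 1. EXPA7 and EXPA18, markers of root hairs, also differed there, by 1.45 and 1.26, and their part in these values was not tested. Groups of 3 arrays are too small for the test for a single deviating sample.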

How the results depend on the processing

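Of 147 calls of UGT genes, 118 were kept under every alternative that could be run, 29 were lost under at least 1, and 0 changed sign. The counts of genes called were 25, 19, 25, 25, 16, 1 and 10 for the 7 group comparisons, 19 and 7 for the interactions and 35 for the F test. With the compared groups alone, the count for genotype after resupply went from 10 to 19 (11 higher and 8 lower), while the share of all probe sets called went from 23.1% to 35.6%. Leaving out 1 array at a time, the counts ranged over 23 to 25 (starvation in WT), 17 to 22 (starvation in the mutant), 23 to 25 and 21 to 25 (resupply), 15 to 18 (genotype, complete medium), 0 to 1 (without Pi, 0 without WT no Pi replicate 2), 7 to 10 (after resupply), 14 to 19 (starvation interaction), 4 to 7 (resupply interaction) and 34 to 37 (F test). The resupply interaction was called in 4 genes without WT no Pi replicate 2, WT resupplied replicate 3, mutant resupplied replicate 2 or mutant resupplied replicate 3. The cause was not tested. Median centring moved the median of all probe sets by 0.12 in the starvation interaction (17 genes, 1 higher and 16 lower) and by 0.08 or less elsewhere. The genotype difference on complete medium was called in 4146 of all probe sets, and in 1525 with the compared groups alone. Without Pi these were 189, and 125 with the replicate block. The deviations of same-numbered arrays from their group means had correlations of -0.474 to 0.232, 12 of 45 over 0.1. With 3 arrays per group, and the 3 low spike-in arrays under different numbers, this cannot settle whether the numbers pair the arrays. With the replicate block the counts were 25, 19, 25, 22, 16, 1, 10, 18, 7 and 36. Calls lost most often were UGT73C1 in the starvation interaction (11 of 18), UGT72E2 on resupply in the mutant (10 of 12), UGT85A3 on starvation in WT (8 of 12) and UGT71B6 in complete medium (8 of 11).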

Other observations

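Another 3 probe sets name a UGT together with another gene, so their signal cannot be assigned to either. The set for UGT73B2 or UGT73B3 had means of 7.54, 9.77 and 10.16 in WT on complete medium, without Pi and resupplied, and 9.55, 9.44 and 10.02 in the mutant. It rose by 2.23 ± 0.14 on starvation in WT (adjusted p = 2.13e-10), its change in the mutant was -0.10 ± 0.14 (adjusted p = 0.611), and the interaction was -2.33 ± 0.20 (adjusted p = 4.76e-07). In complete medium it was 2.0 ± 0.14 higher in the mutant (adjusted p = 1.15e-08). The set for AT1G73885 or UGT89B1 rose on starvation by 0.83 ± 0.15 in WT and 0.98 ± 0.15 in the mutant and changed by -0.05 ± 0.15 and 0.03 ± 0.15 on resupply. The set for UGT71D1 or AT2G29710 passed in 1 of the 9 contrasts, resupply in the mutant (0.41 ± 0.15, adjusted p = 0.0375).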
